A study of Homo sapiens with 8 samples.

Results

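10 genes of muscle-type contraction and actin regulation were followed in the human colorectal cancer line DLD1: TNNT1, TNNT2, TNNC1, TNNI2, TPM2, MYL9, ACTA2, TAGLN, CFL2 and GSN. The probes were those whose gene name in the array files was 1 of these 10 symbols, 13 probes of 50599 on the array (36337 gene names), and 3 of the genes had a pair of probes. The genes were chosen from earlier results of the same arrays, in which CFL2 was among the strongest falls after UHRF1 depletion and TNNT1 among the strongest rises after TSA in UHRF1-depleted cells. Those changes are therefore given as a description with no p-value, and p-values of the other changes are not independent evidence for the choice of genes. Other changes of CFL2 and TNNT1 that use the same arrays are bound up with that choice as well.

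DLD1 is an established colon adenocarcinoma line. Cells of every group received an siRNA, and 48 h later either 300 nM trichostatin A (TSA), which blocks histone deacetylases, or ethanol (mock) for 24 h. The control group carried the control siRNA (siCONT), and the UHRF1 depletion groups carried siUHRF1-1 on the first array and siUHRF1-2 on the second, against UHRF1, the protein that recruits the maintenance DNA methyltransferase to replicated DNA. With both agents this gave 4 groups of 2 arrays: siCONT mock, siUHRF1 mock, siCONT TSA and siUHRF1 TSA. The knockdown was transient, and since each UHRF1 siRNA was on 1 array per agent, the siRNA and the replicate cannot be told apart.

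Levels are the log2 of the background-subtracted signal minus the log2 of the 75th percentile of that array, so 0 is the 75th percentile and 1 unit is 2-fold. Levels of different probes are not on 1 scale and were compared only within a probe, and summed levels of a marker list only between groups. Changed, here, means a limma p under 0.05 after Benjamini-Hochberg adjustment over all probes tested, together with 2-fold or more. The siCONT arrays of an agent differed by little more than repeated spots on 1 array (1.10 and 1.21 times the spot noise, as an SD). Each siCONT pair may thus be 1 sample and carries no SD. The siUHRF1 arrays, which carry different siRNAs, differed by 13.4 times the spot noise under mock and 10.5 times under TSA. The fit over 8 arrays pools these spreads for each probe, so its SE for TSA in siCONT also holds the difference between the siRNAs. That fit takes each siCONT pair as 2 arrays, so its n exceeds the number of distinct samples. Calls are therefore also given from a fit in which each siCONT pair was averaged to 1 sample (6 samples). In that fit no gene of the set passed for UHRF1 depletion under either agent or for the interaction. Mock and TSA arrays occupied different rows of 1 slide, so TSA and slide row cannot be told apart. UHRF1 itself was at 28.1% of siCONT after depletion under mock and 13.6% under TSA (adjusted p 0.0120 and 0.00234; 0.252 and 0.0535 over 6 samples). In siCONT cells TSA alone left UHRF1 at 51.2% of its mock level (adjusted p 0.0175, under 2-fold) and at 45.8% on its other probe (adjusted p 0.0493). Neither passed over 6 samples. The siCONT TSA arrays thus also read less UHRF1 RNA than siCONT mock. All 11 colon epithelial markers were above background on all 8 arrays, but levels of some of them moved: in siCONT cells GPA33 was 44.9-fold and LGALS4 11.9-fold lower with TSA, and after UHRF1 depletion under mock LGALS4 was 8.60-fold and KRT20 7.65-fold higher, neither of the last passing over 6 samples. The part of this in the results was not tested.

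In striated muscle, tropomyosin lies along the actin filament and hides the sites that myosin binds. The troponin complex sits on it: troponin C binds calcium, troponin I holds the filament off, and troponin T ties both to tropomyosin. Smooth muscle has no troponin and is switched on when its regulatory myosin light chain is phosphorylated. Outside muscle, cofilins and gelsolin cut and recycle actin filaments.

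The probes of the genes that the results turn on most are shown, since they are what the signal reports on. They are 60-base oligonucleotides, given 5′ to 3′ in lower case as in the array files, with their place on hg19. The TNNI2 probe covers 308 bases of genome with its 60 bases and so crosses an exon junction. Both TPM2 probes lie in the same gene, in different places.

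TNNC1 (chr3:52485814-52485873, minus strand): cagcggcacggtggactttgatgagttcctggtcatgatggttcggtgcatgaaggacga

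TNNI2 (chr11:1862437-1862744, plus strand): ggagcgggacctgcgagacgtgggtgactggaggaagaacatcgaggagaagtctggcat

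MYL9 (chr20:35177541-35177600, plus strand): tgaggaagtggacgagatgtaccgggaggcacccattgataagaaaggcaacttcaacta

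TPM2, brighter probe (chr9:35682088-35682147, minus strand): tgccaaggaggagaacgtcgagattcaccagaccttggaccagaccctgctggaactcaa

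TPM2, other probe (chr9:35684244-35684303, minus strand): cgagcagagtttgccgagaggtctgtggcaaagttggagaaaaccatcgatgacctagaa

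Since UHRF1 acts on DNA methylation, which falls on CpG, the 250 bases before the RefSeq start of TNNT1 and CFL2, the genes named in the earlier results, are also given, on GRCh38.p14 and with every CpG in capitals. TNNT1 held 7 CpG in this stretch and CFL2 held 31.

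TNNT1 (chr19:55149207-55149456, minus strand): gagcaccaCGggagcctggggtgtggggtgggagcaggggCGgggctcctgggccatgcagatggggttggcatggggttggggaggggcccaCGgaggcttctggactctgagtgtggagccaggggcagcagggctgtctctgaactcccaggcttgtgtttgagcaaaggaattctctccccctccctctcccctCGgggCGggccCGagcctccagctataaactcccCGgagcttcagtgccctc

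CFL2 (chr14:34714594-34714843, minus strand): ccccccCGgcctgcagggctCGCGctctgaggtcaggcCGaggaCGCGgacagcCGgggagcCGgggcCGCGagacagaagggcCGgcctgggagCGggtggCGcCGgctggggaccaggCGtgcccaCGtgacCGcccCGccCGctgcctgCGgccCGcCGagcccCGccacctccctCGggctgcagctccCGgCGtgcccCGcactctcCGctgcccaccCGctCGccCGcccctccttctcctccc

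In windows of 300 bases (250 before the start and 50 after), of which RefSeq gave 35116, the TNNT1 window stood at percentile 38.0 by its number of CpG and the first CFL2 window at percentile 88.0. The second CFL2 start had 6 CpG. TNNT2 had 8, the TPM2 windows 24 and 30, the ACTA2 windows 18 and 6, and the 6 GSN windows between 6 and 39, against a median of 14. Windows were at hand for 6 of the 10 genes, and not for TNNC1, TNNI2, MYL9 and TAGLN. The CArG box of serum response factor, CC then 6 bases of A or T then GG, which reads the same on both strands, was in 0 of these 14 windows and in 1.29% of all windows. Only exact matches within the windows were counted. With so low a share of all windows, 0 of 14 does not tell whether these genes have such sites. No DNA methylation was measured on these arrays.

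**Figure D1:**
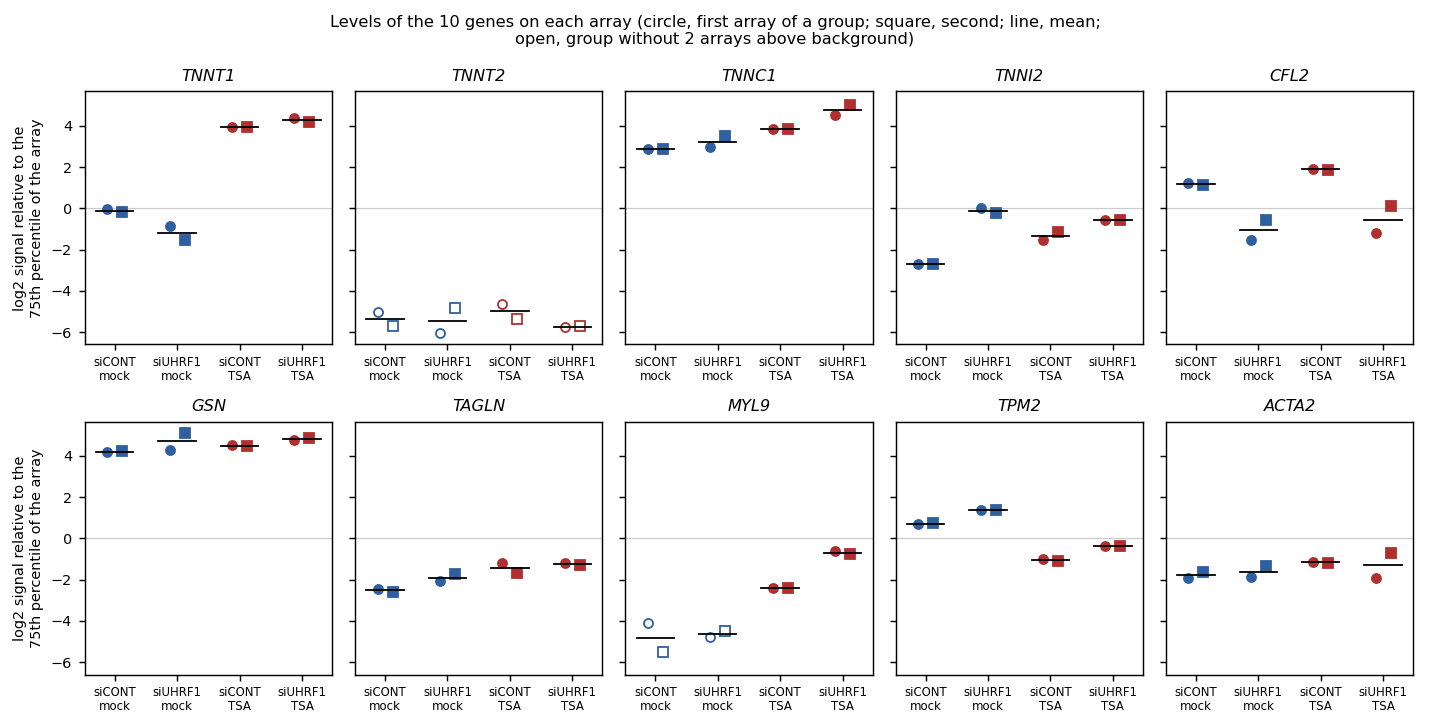
Level of each gene on each array (log2 units over the array's 75th percentile; the brightest probe of each gene). Blue is mock and red is TSA, circles are the first and squares the second array of a group, the line is the group mean, and open symbols mark groups without both arrays above background. TNNT1 and MYL9 stood higher on every TSA array than on any mock array, TPM2 stood lower, and CFL2 was lower on every siUHRF1 array than on any siCONT array.

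TNNT1, the slow skeletal troponin T, rose strongly with TSA in both siCONT and UHRF1-depleted cells. Its level was −0.06 and −0.20 on the siCONT mock arrays, −0.86 and −1.52 on the siUHRF1 mock arrays, 3.96 and 3.93 on the siCONT TSA arrays, and 4.37 and 4.19 on the siUHRF1 TSA arrays. The lowest TSA array thus stood well above the highest mock array, while the TSA groups lay close together. In such bulk RNA a change in every cell and a change in the share of cells cannot be told apart. In siCONT cells TSA raised TNNT1 by 4.07 ± 0.22 (SE), or 16.8-fold (adjusted p 0.000313; 0.0359 over 6 samples). Against siCONT mock, depletion plus TSA gave 4.41 ± 0.22, or 21.2-fold (adjusted p 0.000125; 0.00605 over 6 samples). In UHRF1-depleted cells the TSA change was 5.47 ± 0.22, or 44.3-fold.

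After depletion of UHRF1 alone TNNT1 stood lower. TNNT1 was chosen on siUHRF1 TSA against siUHRF1 mock, which favours low siUHRF1 mock and high siUHRF1 TSA arrays. The p-values of changes that use these arrays, here and with both treatments above, are therefore no separate support. The change under mock was −1.06 ± 0.22 (adjusted p 0.0427), with −0.73 for siUHRF1-1 and −1.39 for siUHRF1-2. Over 6 samples this had an adjusted p of 0.495, and the call was lost without any single array except siUHRF1 mock replicate 1 (changes from −0.73 to −1.14, adjusted p up to 0.228). Under TSA the UHRF1 difference was 0.33 ± 0.22 (adjusted p 0.334), and the difference between the UHRF1 effects under both agents, the interaction, was 1.40 ± 0.32 (adjusted p 0.0562).

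TNNC1, the troponin C of slow and cardiac muscle, was above background on all arrays and highest with both treatments. It measured 2.89 and 2.85 in siCONT mock, 2.96 and 3.51 in siUHRF1 mock, 3.82 and 3.83 in siCONT TSA, and 4.54 and 5.01 in siUHRF1 TSA. The groups stood in that order without overlap, the siCONT and siUHRF1 mock groups being separated by less than the spread of the siUHRF1 pair. Depletion plus TSA raised it by 1.90 ± 0.23, or 3.73-fold (adjusted p 0.00139; 0.0313 over 6 samples). TSA raised it in UHRF1-depleted cells by 1.54 ± 0.23 (adjusted p 0.00375; 0.0276 over 6 samples). The other changes were under 2-fold: 0.95 for TSA in siCONT (adjusted p 0.0210; 0.295 over 6 samples), 0.95 for UHRF1 depletion under TSA (0.0401; 0.362), and 0.36 for UHRF1 depletion under mock (0.330; 0.777). Whether 2-fold was reached depended on the scaling. With quantile normalization TSA in siCONT gave 1.11 (adjusted p 0.0183) and UHRF1 depletion under TSA 1.03 (adjusted p 0.0402). Scaled on the probes above background everywhere, they gave 1.09 (adjusted p 0.0177) and 1.06 (adjusted p 0.0358). Both changes thus passed with these scalings. Without the first siUHRF1 TSA array UHRF1 depletion under TSA gave 1.18. The interaction was 0.59 ± 0.33 (adjusted p 0.283).

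TNNI2, the troponin I of fast skeletal muscle, had a pattern of its own: it was highest after UHRF1 depletion alone. The level was −2.70 on both siCONT mock arrays, 0.03 and −0.25 on the siUHRF1 mock arrays, −1.52 and −1.16 on the siCONT TSA arrays, and −0.56 and −0.55 on the siUHRF1 TSA arrays. The 4 groups did not overlap. UHRF1 depletion under mock raised it by 2.59 ± 0.17, or 6.03-fold (adjusted p 0.00304; 0.0847 over 6 samples), with 2.73 for siUHRF1-1 and 2.45 for siUHRF1-2. TSA in siCONT gave 1.36 ± 0.17 (adjusted p 0.00224; 0.109 over 6 samples). Both together gave 2.15 ± 0.17 (adjusted p 0.000325; 0.0119 over 6 samples), but 0.84 with another background correction (normexp), which compresses dim signals and put UHRF1 depletion under mock at 1.15.

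Under TSA, UHRF1 depletion changed TNNI2 by only 0.79 for each siRNA (adjusted p 0.0270; 0.313 over 6 samples; under 2-fold). The UHRF1 effect under TSA was thus smaller than that under mock by 1.80 ± 0.23 on the log2 scale, and this interaction passed (adjusted p 0.0215). Over 6 samples it had an adjusted p of 0.350, and without any 1 siCONT array the adjusted p lay between 0.0715 and 0.105. With normexp the interaction was −0.73 and the TSA change in siCONT 0.42. In UHRF1-depleted cells TSA left TNNI2 at −0.45 ± 0.17 (adjusted p 0.0774).

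TNNT2, the cardiac troponin T, was not well above background on any of the 8 arrays, with measured values between −6.04 and −4.64. It entered no comparison, so only 9 of the 10 genes could be tested.

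TPM2, a beta-tropomyosin, was lower with TSA and slightly higher with UHRF1 depletion. On its brighter probe it measured 0.69 and 0.76 in siCONT mock, 1.37 and 1.38 in siUHRF1 mock, −0.98 and −1.07 in siCONT TSA, and −0.34 and −0.37 in siUHRF1 TSA. The arrays of each group lay almost on top of each other, and no groups overlapped. TSA lowered it to 29.8% in siCONT cells (−1.75 ± 0.11; adjusted p 0.000397; 0.0648 over 6 samples) and to 30.1% in UHRF1-depleted cells (−1.73 ± 0.11; adjusted p 0.000236; 0.00773 over 6 samples). UHRF1 depletion gave 0.65 under mock and 0.67 under TSA (adjusted p 0.0262 and 0.0144; 0.544 and 0.351 over 6 samples), both under 2-fold, and the interaction was 0.01 ± 0.15 (adjusted p 0.960).

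The other TPM2 probe gave the same order of groups. Its changes were −2.01 for TSA in siCONT, −1.94 for TSA in UHRF1-depleted cells, 0.67 for UHRF1 depletion under mock and 0.73 under TSA. With both treatments TPM2 stood 1.08 below siCONT mock on the brighter probe (adjusted p 0.000736; 0.0479 over 6 samples) and 1.28 below on the other (adjusted p 0.000436; 0.0321 over 6 samples). The call of the brighter probe fell under 2-fold when arrays were scaled on the probes above background everywhere (−0.84).

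MYL9, the regulatory light chain of smooth muscle and non-muscle myosin, was above background only on the 4 TSA arrays. It measured −2.42 on both siCONT TSA arrays and −0.63 and −0.77 on the siUHRF1 TSA arrays. On the mock arrays the measured values, from −5.51 to −4.10, were not well above background and bound the level only. It was at least 1.97-fold higher with TSA in siCONT cells, a bound under 2-fold, and at least 7.45-fold higher with TSA in UHRF1-depleted cells. Against siCONT mock it was at least 6.47-fold higher with both treatments together.

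MYL9 could enter these comparisons only through the groups in which it was above background, so no p-value is given for them. With normexp its TSA change in siCONT was 0.26 on the log2 scale. The difference between siUHRF1 TSA and siCONT TSA rests on measured values in both: it was 1.72 ± 0.42, or 3.29-fold (adjusted p 0.0412), with 1.79 for siUHRF1-1 and 1.65 for siUHRF1-2. The call was not kept in other fits, with an adjusted p of 0.0903 over 6 samples and of 0.0519 with the replicate number as a block. It was lost without either array of siUHRF1 mock, siCONT TSA or siUHRF1 TSA (adjusted p between 0.0515 and 0.179).

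TAGLN, the actin-binding protein transgelin of smooth muscle, was higher with TSA than under mock. Its brighter probe measured −2.43 and −2.60 in siCONT mock, −2.06 and −1.73 in siUHRF1 mock, −1.20 and −1.66 in siCONT TSA, and −1.20 and −1.30 in siUHRF1 TSA. Every TSA array stood above every mock array, but the TSA groups overlapped. Depletion plus TSA raised it 2.40-fold (1.26 ± 0.20; adjusted p 0.00355; 0.0437 over 6 samples). TSA in siCONT gave 1.09 ± 0.20 (adjusted p 0.00840; 0.165 over 6 samples), with a value of 1.00 and adjusted p of 0.0588 without siCONT mock replicate 2, and 0.86 and 0.0540 without siCONT TSA replicate 1. With normexp these changes were 0.44 and 0.33. The other probe, above background on 7 arrays, moved by less: 0.67 with both treatments (adjusted p 0.0320; 0.218 over 6 samples) and 0.50 with TSA in siCONT (adjusted p 0.0855). The probes thus disagreed on whether the change reached 2-fold.

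ACTA2, the smooth muscle alpha-actin, passed no test. It measured −1.92 and −1.62 in siCONT mock, −1.88 and −1.35 in siUHRF1 mock, −1.13 and −1.18 in siCONT TSA, and −1.90 and −0.68 in siUHRF1 TSA. The siUHRF1 TSA arrays, which carry different siRNAs, spanned almost the whole range of the other arrays. Between groups, changes lay between −0.13 and 0.61, with adjusted p between 0.262 and 0.841, and its value with both treatments was 1.09 without the first siUHRF1 TSA array (adjusted p 0.0308) and −0.13 without the second. The actin genes are near-identical in their coding sequence, so how far this probe also reads other actins is uncertain.

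CFL2, the muscle-type cofilin, was lower with both UHRF1 siRNAs, while TSA did not lower it. It measured 1.23 and 1.11 in siCONT mock, −1.55 and −0.58 in siUHRF1 mock, 1.92 and 1.85 in siCONT TSA, and −1.21 and 0.10 in siUHRF1 TSA. All siUHRF1 arrays stood below all siCONT arrays, by 2.72 and 3.09 for siUHRF1-1 and by 1.75 and 1.79 for siUHRF1-2, under mock and TSA. The mean of the siUHRF1 groups was 21.2% of siCONT under mock and 18.4% under TSA. The siRNA arrays differed from each other by more than the siCONT arrays of either agent did, and siUHRF1-1 was the lower under both agents.

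TSA did not pass for CFL2: the change was 0.71 ± 0.47 in siCONT (adjusted p 0.266) and 0.51 ± 0.47 in UHRF1-depleted cells (adjusted p 0.431). The pooled SE holds the spread between the siRNAs (SD 0.68 under mock and 0.92 under TSA), which is wider than that between siCONT arrays. Both siCONT TSA arrays stood above both siCONT mock arrays. The adjusted p of 0.266 therefore does not show that TSA left CFL2 unchanged. In other settings the siCONT change lay between 0.65 and 0.84, under 2-fold. The interaction was −0.20 ± 0.67 (adjusted p 0.866). CFL2 was chosen on its fall after UHRF1 depletion. The p-values of changes that use the siUHRF1 arrays, the interaction included, are therefore bound up with that choice. With both treatments CFL2 stood at 30.2% of siCONT mock.

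CFL1, the cofilin of non-muscle cells, had changes between −0.35 and 0.26 over the 5 comparisons of groups, and none reached 2-fold. ACTB and ACTG1, the cytoplasmic actins that serve in all cells, also had none of 2-fold. ACTB changed by −0.48 after UHRF1 depletion under mock and by −0.30 with both treatments, and ACTG1 by −0.33 and 0.39.

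GSN, which encodes gelsolin, was above background on every array and reached 2-fold in no comparison. The brighter probe measured 4.21 and 4.22 in siCONT mock, 4.31 and 5.11 in siUHRF1 mock, 4.53 and 4.47 in siCONT TSA, and 4.77 and 4.88 in siUHRF1 TSA. Its changes lay between 0.12 and 0.61 and none passed (adjusted p between 0.0926 and 0.745). The rise under mock was 0.09 for siUHRF1-1 and 0.89 for siUHRF1-2. The other probe gave 0.75 with both treatments (adjusted p 0.0195; 0.186 over 6 samples), also under 2-fold.

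**Figure D2:**
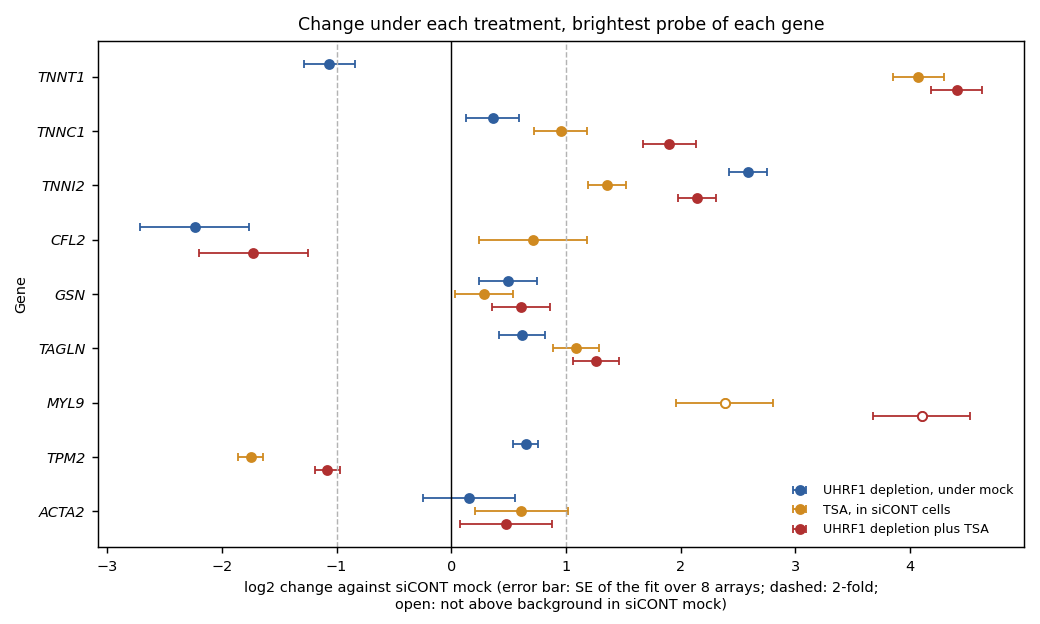
Log2 change of each gene against siCONT mock after UHRF1 depletion (blue), TSA (orange) or both (red); bars are the SE of the limma fit over 8 arrays and dashed lines mark 2-fold. TNNT2 was never above background and is not drawn, and open MYL9 points are fitted values against a group that was not above background. TNNT1 stood at 4.07 with TSA and 4.41 with both, CFL2 at −2.24 and −1.73 with UHRF1 depletion and with both, and TNNI2 at 2.59 with UHRF1 depletion alone.

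Counted over the genes tested, UHRF1 depletion under mock gave calls in 3 of 8 (TNNI2 higher, TNNT1 and CFL2 lower), where 4.12% of all 22396 probes tested were called. TSA in siCONT gave 5 of 9 (TNNT1, TNNI2, TAGLN and MYL9 higher, TPM2 lower), against 18.6% of probes. Depletion plus TSA gave 7 of 9 (TNNT1, TNNC1, TNNI2, TAGLN and MYL9 higher, CFL2 and TPM2 lower), against 25.6%. UHRF1 depletion under TSA gave 2 of 9 (MYL9 higher, CFL2 lower), against 8.27%, TSA in UHRF1-depleted cells 4 of 9 (TNNT1, TNNC1 and MYL9 higher, TPM2 lower), against 20.7%, and the interaction 1 of 9 (TNNI2), against 4.89%. CFL2 after UHRF1 depletion and TNNT1 with TSA in depleted cells are in these counts, but were chosen on those changes and add nothing to them. Other changes of TNNT1 and CFL2 that use the same arrays share this limit, and MYL9 against mock groups rests on groups not above background. Since the genes were picked with such changes known, nothing is read from these shares. The median log2 change of the tested genes with both treatments was 1.26, beside −0.14 for all probes tested. It depends on the same choice of genes and is not read as a result either.

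With each siCONT pair as 1 sample, the calls were 0 after UHRF1 depletion under mock, 2 with TSA in siCONT (TNNT1 and MYL9), 6 with both treatments (the 7 without CFL2), 0 with UHRF1 depletion under TSA, 4 with TSA in UHRF1-depleted cells and 0 for the interaction. That limma fit called 0.0223%, 1.56%, 15.4%, 0.692%, 17.6% and 0% of all probes in the same order. At an unadjusted p under 0.05 and at least 2-fold it passed 1299 probes for UHRF1 depletion under mock, 2229 for that under TSA and 2118 for the interaction. The 6 comparisons share arrays, 4 of them siCONT mock. The count for TSA in UHRF1-depleted cells includes TNNT1, which was chosen on that change. MYL9 is in the counts against mock groups, where it was not above background, so nothing is read from its calls.

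**Figure D3:**
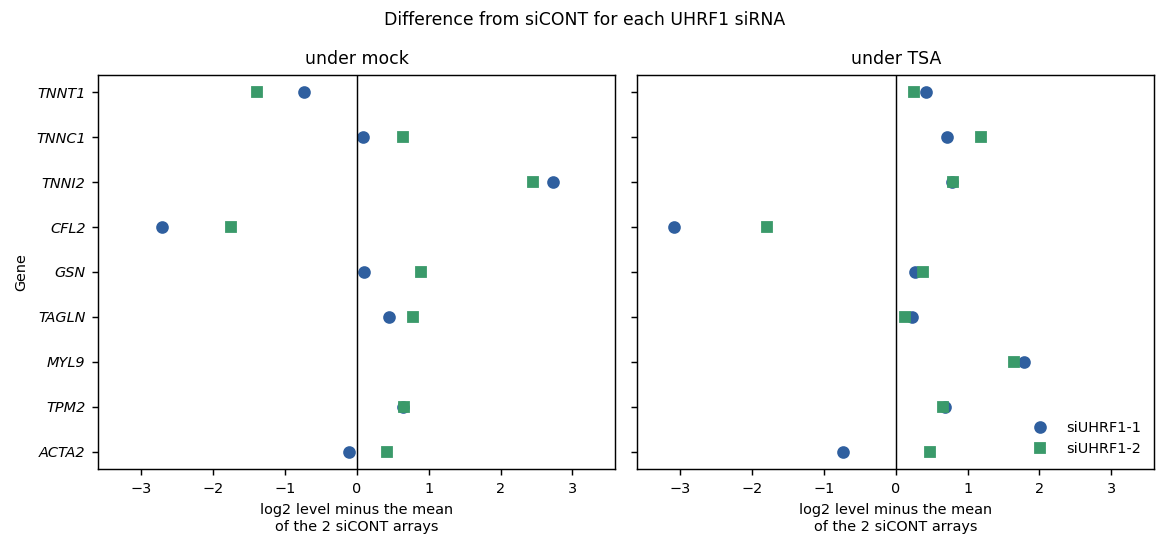
Level of each gene on the siUHRF1-1 array (blue circles) and the siUHRF1-2 array (green squares) minus the mean of the siCONT arrays of the same agent, in log2 units, under mock (left) and TSA (right). Genes not above background in both groups are left out. CFL2 lay between −3.09 and −1.75 for both siRNAs under both agents, TNNI2 stood at 2.73 and 2.45 under mock and at 0.79 under TSA, and ACTA2 took opposite signs for the siRNAs.

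Of the genes on the array, the 3 whose levels ran closest to TNNT1 over the 8 arrays, among 24580 probes, were TUBB3, a neuronal tubulin (Pearson r 0.999), FTL, the ferritin light chain (0.999), and EID3 (0.998). Those closest to CFL2 were HIPK3 (r 0.988), PRKCI (0.987) and RTCD1 (0.985). Arrays of a group share their treatment, so these are descriptions over 4 groups. Among the set itself, TNNT1 and TPM2 ran in opposite directions (r −0.95), and TNNI2 and CFL2 likewise (r −0.72).

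The wider contractile and actin machinery was read from 8 lists with 138 genes on the array, the 10 genes left out. The lists were put together with earlier results of these arrays known. A gene without a siCONT mock pair above background could be tested against siCONT mock only through the treated group. TNNI3, CNN1 and CTGF entered with both treatments in this way. The counts below and their split into higher and lower are thus not read as results. Depletion plus TSA called 28 of 99 genes tested (28.3%, 22 higher and 6 lower; 25.6% of all probes), TSA in siCONT 25 of 96 (26.0%; 18.6% of all probes), and UHRF1 depletion under mock 5 of 88 (5.68%; 4.12% of all probes). Over all lists together the share was near that of all probes with both treatments and higher than it for TSA in siCONT. It differed from list to list. The lists count the brightest probe of each gene, while the share of all probes counts every probe.

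Of 26 thick filament and Z disc genes 16 were above background on no array, and of 15 further thin filament genes 6 were. On the whole array, 24591 of 50599 probes had a group with both arrays above background. With both treatments 8 thick filament and Z disc genes were tested, of which 6 lacked a siCONT mock pair above background and so could enter only through other groups, and no count over them is read as a result. Of the 2 measured on all arrays, MYH3, the embryonic myosin heavy chain, rose by 1.41 (0.0679 over 6 samples) and TCAP, the titin cap protein, was at 0.46 without passing. MYOM1, which encodes the M band protein myomesin, was at least 3.11-fold higher and MYBPC2, fast myosin-binding protein C, at least 1.97-fold higher. MYH8, the perinatal myosin heavy chain, measured −3.36 and −2.79 in siCONT mock, where 1 of the arrays was above background, and −0.51 and 1.39 in siUHRF1 TSA. Of the 8 further thin filament genes tested, the 4 measured on all arrays had no call, and the 4 called were above background on no siCONT mock array.

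TNNI3, the cardiac troponin I, was at least 5.35-fold higher with both treatments. It measured −1.91 and −1.68 in siCONT TSA and −0.86 and −1.09 in siUHRF1 TSA and was not above background on the mock arrays, so like MYL9 it was seen only with TSA. Its probe lay at chr19:55665511-55665570 on hg19, close to that of TNNT1 at chr19:55644196-55644255, both on the minus strand. TNNC2, the fast troponin C, was at least 2.49-fold higher and TMOD1, which caps the pointed end of the filament, at least 1.95-fold. TNNT3, the fast troponin T, and TNNI1, the slow troponin I, were above background on no array.

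Of 12 smooth muscle genes 6 were above background on all arrays. With both treatments DES, which encodes desmin, rose by 1.41 ± 0.22 (adjusted p 0.0527 over 6 samples), and SMTN, which encodes smoothelin, fell by 1.39. CNN1, which encodes calponin, was at least 6.30-fold higher and SYNM, which encodes synemin, at least 1.64-fold higher, both against groups not above background. For DES, measured in all groups, the UHRF1 effect was higher under TSA than under mock by 1.96 ± 0.31 (interaction, adjusted p 0.0285; 0.420 over 6 samples). CNN1 and SYNM were above background on no mock array, so no interaction is given for them.

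Of 19 non-muscle actomyosin genes 2 rose with both treatments, among them FLNA, a filamin (1.40), and of 22 tested cofilin cycle and monomer-binding genes 3 fell and 0 rose, where 25.6% of all probes were called. Those were PDXP, a cofilin phosphatase (−1.94), CORO1C, a coronin (−1.55), and PFN1, profilin (−1.37). Of FLNA, PDXP, CORO1C and PFN1, only PFN1 passed over 6 samples. Of 10 gelsolin family and capping genes AVIL (advillin, at least 3.66-fold) and SCIN (scinderin, 2.01) rose and SVIL (supervillin) fell by 1.20. AVIL had an adjusted p of 0.0723 over 6 samples, and SCIN and SVIL passed there. No list was tested against the other probes.

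With both treatments 3 of 14 tested genes around serum response factor were called (21.4%) and 2 of 9 muscle transcription factors (22.2%), beside 25.6% of all probes. Neither count is read as a result. CTGF was at least 8.27-fold and ANKRD1 at least 2.96-fold higher, both entering only through groups other than siCONT mock. CYR61 rose by 2.60 ± 0.13 and passed over 6 samples. Of the muscle transcription factors MEF2C rose by 1.41 and TEAD3 fell by 1.18 (adjusted p 0.106 and 0.0421 over 6 samples), and 9 of 18 were above background on no array.

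**Figure D4:**
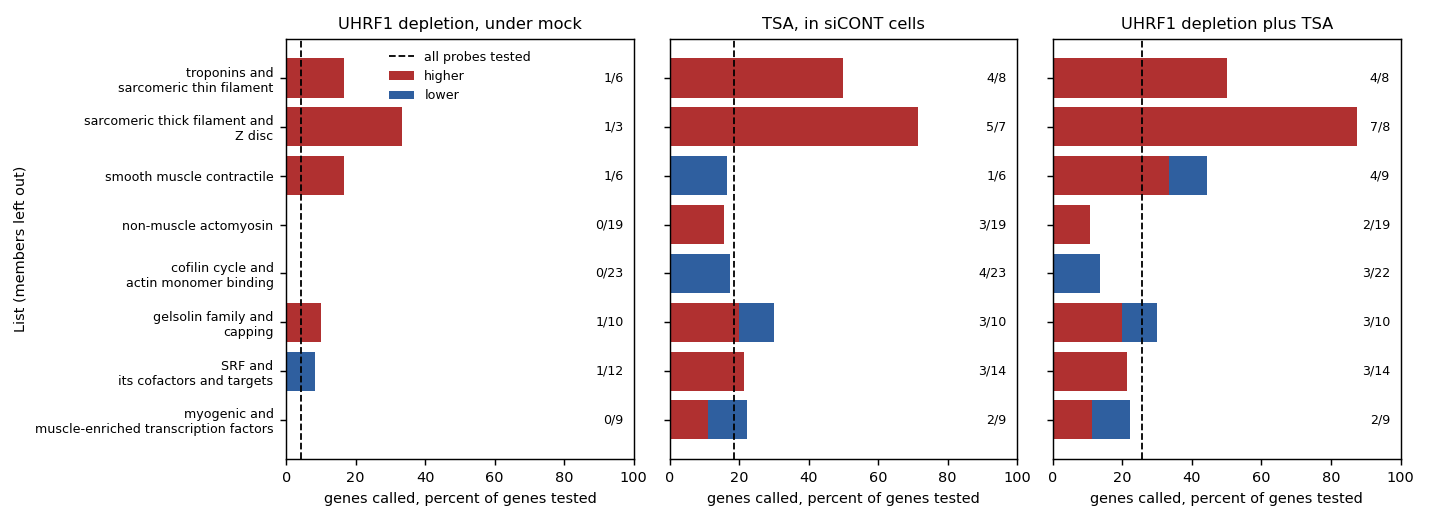
Share of the tested genes of each list that were called higher (red) or lower (blue), in percent, after UHRF1 depletion under mock, TSA in siCONT cells, and both; the dashed line is the share of all probes tested (4.12%, 18.6% and 25.6%) and the numbers are genes called over genes tested. With both treatments, 7 of 8 thick filament genes were called, 6 of them tested only through groups other than siCONT mock, and 2 of 19 non-muscle actomyosin genes. Other lists also hold genes tested only through such groups.

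Markers of cells that normally make these proteins were read beside them. Of 11 fibroblast markers 0, 1, 2 and 3 were above background in siCONT mock, siUHRF1 mock, siCONT TSA and siUHRF1 TSA. Their summed level, in units of the 75th percentile, was 0.37 to 0.44, 0.39 to 0.45, 1.89 to 2.05 and 2.79 to 4.07. COL1A2, COL3A1, PDGFRA and POSTN were above background on no array. Of 7 smooth muscle markers 2, 2, 2 and 4 were above background, with ACTG2, LMOD1 and MYOCD on no array. The summed level of the 7 was 2.47 to 2.68, 2.38 to 2.44, 1.59 to 1.65 and 3.77 to 5.02. DES and SMTN were above background on all arrays, MYH11 on the siUHRF1 TSA arrays only, and CNN1 on these and 1 siCONT TSA array. With both treatments MYH11 was at least 1.29-fold and CNN1 at least 6.30-fold higher, DES rose by 1.41 and SMTN fell by 1.39. Of 10 skeletal and cardiac markers 2, 2, 3 and 4 were above background, with MYOD1, MYOG, MYF5, MYH6, MYH7 and TTN on no array. The summed level of the 10 lay between 87.8 and 135, nearly all of it from the NKX2-5 probe. ACTA1 and NKX2-5 were above background on all arrays and changed by under 2-fold with both treatments. MYH2 was above background on the TSA arrays only. CKM was above background on both siUHRF1 TSA arrays and on 1 array each of siUHRF1 mock and siCONT TSA. Against siCONT mock with both treatments, CKM was at least 12.9-fold and MYH2 at least 4.02-fold higher. VIM and COL1A1 were above background on the TSA arrays only, as MYL9 was. The other fibroblast markers seen differed from this. PDGFRB was above background on both siUHRF1 mock arrays and 1 siCONT TSA array, and at least 1.97-fold lower with TSA in UHRF1-depleted cells. THY1 was above background on the siUHRF1 TSA arrays only, and LUM, DCN and FAP on 1 siUHRF1 TSA array each. The part of such cells or of these markers in the results was not tested.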

How the data were processed

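RNA of DLD1 cells was hybridized to 8 single-colour Agilent SurePrint G3 Human GE v2 arrays. The deposited files hold spot intensity on a linear scale, extracted by the authors with Agilent Feature Extraction 10.7.3.1, which subtracted background and did not scale between arrays. The authors' later analysis used GeneSpring GX, with a normalization not given in the sources used here. The authors also deposited a value table of the same intensity, used as an alternative.

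Groups followed the labels. Control and outlier spots were left out, and spots of a probe averaged. The log2 processed signal minus the log2 of the 75th percentile of the array was fitted with limma 3.58.1 (lmFit, eBayes; R 4.3.3) as 4 group means over 8 arrays (4 residual degrees of freedom, prior 2.17). A probe was tested if both arrays of any group compared were well above background (for the interaction, of any group); 24591 probes were fitted. P-values were two-sided and adjusted by Benjamini-Hochberg over all probes tested. Where a group was not above background, the fold is a bound against the lowest signal well above background on its arrays. Between 43.3% and 48.0% of probes were well above background per array, the 75th percentile of the intensity was 137 to 189, and no spot was saturated. The number of arrays limits the precision. No label says that the siCONT arrays of an agent came from separate cultures, so their spread may be technical. The spread of the siUHRF1 arrays includes the difference between the siRNAs. P-values measure only the spread between these arrays, pooled over groups.

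The genes and gene lists were chosen with earlier results of these data known. Named were all probes of the 10 genes (the brightest first), UHRF1, the called genes with the strongest rise and fall of each list (up to 3 each way, with both treatments), the 3 genes nearest to TNNT1 and CFL2, and CFL1, ACTB and ACTG1. TCAP, TNNT3 and TNNI1 were named after their values were seen, as were the markers singled out. An item of the lists is not reported here. Alternatives were other scalings, normexp background correction, other filters, the siCONT arrays as 1 sample, fits of fewer arrays, a replicate block and the methods' t-test. All 13 probes' transcript accessions matched their symbol in RefSeq. Sequences are from the array files and RefSeq (GRCh38.p14).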

Additional observations from a re-analysis of the deposited data

Results flagged for a closer look

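The UHRF1 effect on TNNI2, the fast skeletal troponin I, differed between the agents: 2.59 ± 0.17 (SE) under mock but 0.79 ± 0.17 under TSA, so that the effect with TSA minus that without was −1.80 ± 0.23 on the log2 scale (limma interaction term, adjusted p 0.0215; 0.350 with each siCONT pair as 1 sample). Both UHRF1 siRNAs showed it, with 2.73 and 2.45 under mock against 0.79 under TSA. With normexp background correction the difference was −0.73. Groups of 2 arrays were too small for a search for outlying arrays.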

How the results depend on the processing

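No called change of the 10 genes reversed in any setting. After UHRF1 depletion under mock the count of 3 became 1 with quantile normalization, with the 75th percentile of probes above background everywhere, without a filter on dim probes or with only the groups compared, and 0 with the siCONT arrays as 1 sample or the methods' t-test adjusted. With TSA in siCONT the 5 became 2 with normexp, 2 with siCONT as 1 sample and 3 with the adjusted t-test. Quantile normalization or that 75th percentile gained TNNC1 here and for UHRF1 depletion under TSA. With both treatments the 7 became 4 with normexp and 4 with the adjusted t-test. UHRF1 depletion under TSA went from 2 to 1 with normexp or the replicate block (MYL9 lost), with probes above background on all arrays (MYL9 not tested) or with the t-test unadjusted (CFL2 lost), and to 0 without a filter, with siCONT as 1 sample or the adjusted t-test. TSA in UHRF1-depleted cells went from 4 to 0 with the adjusted t-test. The interaction went from 1 to 2 with that 75th percentile or with probes above background on all arrays (TNNT1 gained), and to 0 without a filter or with siCONT as 1 sample. Leaving out 1 array in turn gave 1 to 2, 4 to 5, 6 to 7, 0 to 2, 4 to 4 and 0 to 2 calls in these 6 comparisons; the interaction had 0 without any 1 siCONT array and 2 without either siUHRF1 mock array.

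The replicate number as a block changed no other call of the 10 genes. The number names the siRNA in the UHRF1 groups, whose deviations correlated at 0.337 between mock and TSA, while other pairs of groups lay between −0.056 and 0.076, so the numbers did not pair all samples. Median scaling moved the median of all probes to −0.54 with both treatments, where 31.6% of called probes were then higher, against 56.8% (72.1% with the 75th percentile of probes above background everywhere). TAGLN then stood at 0.86 with both treatments. The normexp correction, which compresses dim signals, put TSA in siCONT at 0.26 for MYL9, 0.33 for TAGLN and 0.42 for TNNI2. Over all probes the calls ranged widely, for UHRF1 depletion under mock from 923 to 301 with normexp, 61 with only the groups compared, 5 with siCONT as 1 sample and 0 with the adjusted t-test. Of the single genes' values, 905 kept direction and side of the threshold, 87 lost it, 11 gained it and 25 uncalled ones moved. The cause of these changes was not tested.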
